A study of Mus musculus with 15 samples.

Results

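The data described here were the transcript counts of 8 genes for neural adhesion molecules of the immunoglobulin superfamily, followed through single cells of the developing mouse cerebellum and of SHH-driven medulloblastoma. The genes were the contactins Cntn1 and Cntn2, the L1-family genes L1cam, Nrcam, Nfasc and Chl1, and the neural cell adhesion molecules Ncam1 and Ncam2. They were chosen by name, with earlier results of these data known, and all 8 were found among the 27803 genes of the deposited tables.

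Contactins are held on the outer face of the membrane by a lipid anchor and act together with transmembrane partners, among them L1-family molecules and contactin-associated proteins. L1-family molecules cross the membrane, bind ankyrins inside the cell, and serve axon growth, bundling and, for neurofascin and NrCAM, the nodes of myelinated axons. NCAMs bind their like on neighboring cells and can carry polysialic acid, which loosens that contact. In the cerebellum, CGNPs proliferate in the external granule layer, leave the cell cycle, send out parallel fibers and migrate inward, and contactin 2 (TAG-1) is a textbook marker of the premigratory cells.

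Drop-seq was run on 15 mice in 3 groups of 5. WT cerebella came from untreated C57BL/6 mice at postnatal day 7. The tumors came from M-Smo mice (Math1-Cre:SmoM2/EYFPloxP/loxP, C57BL/6), in which the Math1 (Atoh1) driver switches on a constitutively active SMO, fused to a fluorescent protein, in the lineage that includes CGNPs. Tumor-bearing mice received 3 daily doses of 75 mg per kg vismodegib, a SMO inhibitor, or of the vehicle (NMP and PEG) from postnatal day 12 to 14, and tumors were taken at day 15. All tumor-bearing mice carried both transgenes, and no mice without SmoM2 were treated. Cells outside the Math1 lineage in these tumors, such as microglia, do not switch SmoM2 on. The paper found transcripts of the fluorescent protein in some cells of the astrocytic and oligodendrocytic clusters of vehicle-treated tumors. The glia-like classes of tumors below may thus hold tumor-derived cells beside normal glia, and these were not separated. WT and tumor cells were captured on different devices (PDMS and glass), so age, genotype and device cannot be told apart between WT and vehicle-treated samples. By the study's methods M-Smo littermates were assigned at random to vehicle or vismodegib, with females and males in equal numbers, but which samples share a litter is not given in the labels. The p-values measure the spread between them.

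Of 51841 barcodes, 37946 were kept as cells (7224 WT, 18293 vehicle and 12429 vismodegib). The tables held from 2310474 to 17708677 UMIs each, and the median cell of an animal held from 1082.5 to 2597 UMIs. No pair of tables shared more than 13 barcodes. With the 8 genes and their partner genes held out, clusters were grouped into a proliferating CGNP-like stage (called progenitor), an early and a late differentiating stage, and glial classes. All 12 early, 13 late, 12 astrocyte, 11 oligodendrocyte and 10 microglia markers were higher in their class than in the other cells in each group. Since these same lists named the classes, that was largely set in advance and is no separate support for the names. In vehicle-treated tumors the 12 early markers summed to 12366 ± 1732 CPM in early cells and 13677 ± 1677 CPM in late cells. The late stage of WT was 1 cluster with none of its own markers among its 10 leading genes, so WT and tumor late stages were compared by cluster number. Eomes, a marker of unipolar brush cells, was among those genes, and that class had the second highest score (1.28 against 1.71), so the WT late stage stands below for cluster 0 and is not borne out as granule cells. A level below is in CPM, the UMIs of a gene as a share of all UMIs on the counts-per-million scale, summed over the cells of a class in 1 animal, and since Drop-seq counts 3′ ends, levels were compared within a gene and never between genes.

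In droplet data, free RNA gives UMIs in cells that do not express a gene, so microglia-like cells, which should lack these molecules, were taken as a yardstick. Their level of Cntn2 was 50.1 ± 62.8 CPM (SD, n = 4) in WT, 72.1 ± 71.6 CPM (n = 4) in vehicle-treated and 47.4 ± 14.7 CPM (n = 5) in vismodegib-treated samples. Their Cntn1 averaged from 5.14 to 6.67 CPM in the 3 groups, their L1cam from 4.21 to 22.4 CPM, their Nrcam from 5.17 to 23.1 CPM and their Nfasc from 9.02 to 24.8 CPM. The SD of Cntn1 was 10.3 CPM in WT, 9.24 CPM in vehicle-treated and 7.31 CPM in vismodegib-treated samples, above its mean each time. These means are thus a rough yardstick. Ncam1 averaged from 33.0 to 47.1 CPM, Chl1 from 0 to 4.76 CPM and Ncam2 from 0 to 0.501 CPM. Levels at or under these are given below as values and not read as expression.

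The genes lie on 7 chromosomes of GRCm38 (GENCODE M21): Cntn1 at chr15:92051165-92341967 (+), Cntn2 at chr1:132509427-132543256 (−), Nfasc nearby at chr1:132564690-132741797 (−), L1cam at chrX:73853778-73896105 (−), Nrcam at chr12:44328885-44601964 (+), Chl1 at chr6:103510586-103750211 (+), Ncam1 at chr9:49502136-49798925 (−) and Ncam2 at chr16:81200697-81626828 (+). The span of L1cam overlaps Arhgap4 on its own strand and Avpr2 on the other, so its counts are uncertain to the extent that reads were shared. Shorter or unnamed annotated genes overlap Nrcam, Chl1 and Ncam2 on their own strand and Nfasc and Ncam1 on the other. Basic helix-loop-helix factors of granule cells, such as ATOH1 and NEUROD1, bind E-boxes, and 250 bases upstream of the RefSeq starts (GRCm38.p6) were searched on both strands for 2 of them, CAGATG and CAGCTG. Of the 7 genes with an entry (Ncam1 was not in the table), L1cam alone held a match, shown here for its place in the only gene of the set with one, on the minus strand at chrX:73880907-73880936, upstream of a start inside the gene, with the E-box in capitals.
L1cam upstream stretch: tgcggccaggttCAGATGaaacaaggaacg
Of 32851 mouse promoters of that length, 14.4% held CAGATG, 13% held CAGCTG and 25.5% held either, so a match in 1 of 7 genes is no more than a description.

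Of the 8 molecules, 6 were higher in early differentiating cells than in progenitors, in WT cerebella and in vehicle-treated tumors alike, and they then parted. Cntn2 fell from the early to the late stage, whereas Cntn1 and Chl1 had their highest stage level in late cells and Ncam1 climbed at both steps. In WT the late stage is a single cluster that is not borne out as granule cells. The WT late values thus describe that cluster, and a lineage course up to it was not shown in WT. In WT, 6 of 7 members tested rose from progenitor to early stage and none fell, where 52.9% of 6984 genes passed the test (25.4% higher and 27.5% lower). In vehicle-treated tumors the count was 6 of 8 higher and 0 lower, beside 62.1% of 10638 genes (29.7% higher and 32.4% lower). The median log2 difference of the members was 1.39 in WT and 1.52 in vehicle-treated tumors, and that of all genes tested was within 0.08 of 0 in every comparison below.

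Cntn2, the axonal contactin of premigratory granule cells, stood at 131, 112, 79.5, 141 and 173 CPM in the progenitors of WT cerebella 1 to 5. In their early cells it stood at 665, 618, 344, 674.5 and 752 CPM, and in their late cells at 334, 286, 189, 311.5 and 365 CPM. In all 5 cerebella the early level was the highest of the 3, 4.33 to 5.50 times that of progenitors, and the late level was 0.462 to 0.550 of the early one. By edgeR's quasi-likelihood test with the animal as a block, the first step was 2.20 ± 0.08 on the log2 scale (SE, adjusted p = 8.26e-31) and the second was -1.04 ± 0.09 (adjusted p = 3.12e-14).

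Vehicle-treated tumors drew the same outline of Cntn2 with a steeper rise. Their progenitors held 78.7, 64.8, 91.8, 61.5 and 54.0 CPM, near the microglia-like level of 72.1 CPM, and their early cells held 1243, 898.5, 1268, 806 and 727 CPM. The early level was 13.1 to 15.8 times that of progenitors in the 5 tumors (log2 difference 3.73 ± 0.07, edgeR adjusted p = 1.44e-41), and 0.516 to 0.850 of it was left in late cells (-0.49 ± 0.08, edgeR adjusted p = 5.79e-07, and 0.0876 without the animal as a block). The step from progenitor to early stage was larger in vehicle-treated tumors than in WT by 1.45 on the log2(CPM + 10) scale (3.62 against 2.17, exact permutation p = 0.00794, the smallest that 5 against 5 allows). With the tumor progenitors near the microglia-like level, the size of the tumor step and of this difference is uncertain. In vismodegib-treated tumors the early level was 8.69 to 14.4 times that of progenitors, and the late level was 0.492 to 0.604 of the early one.

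Cntn1, the contactin of later neurons and of oligodendrocyte precursors, took the opposite course between early and late cells. In WT it went from 23.4 ± 5.05 CPM in progenitors through 49.3 ± 7.83 in early to 238 ± 44.0 in late cells (SD, n = 5). In vehicle-treated tumors it went from 6.21 ± 1.73 through 22.0 ± 3.1 to 236 ± 69.5 CPM. The late level was 3.73 to 6.17 times the early one in WT, 7.72 to 14.4 times in vehicle-treated and 5.00 to 8.33 times in vismodegib-treated animals, higher in all 15. The edgeR difference of late against early cells was 2.21 ± 0.16 in WT (adjusted p = 7.31e-18) and 3.41 ± 0.16 in vehicle-treated tumors (adjusted p = 6.21e-24).

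Among the L1-family genes, L1cam, whose product guides and bundles axons, rose at the first step in every animal. It went from 17.4 ± 1.69 through 125 ± 22.9 to 172 ± 62.3 CPM in WT and from 6.29 ± 2.88 through 87.0 ± 24.6 to 306 ± 73.5 CPM in vehicle-treated tumors. The first step was 2.73 ± 0.18 in WT (edgeR adjusted p = 1.69e-20) and 3.73 ± 0.14 in vehicle-treated tumors (edgeR adjusted p = 3.81e-29). The second was smaller, 0.60 ± 0.15 in WT (edgeR adjusted p = 0.0019, and 0.0687 without WT 1) and 1.87 ± 0.12 in vehicle-treated tumors (edgeR adjusted p = 3.09e-18), and in WT it was upward in 4 of 5 cerebella. With classes assigned cell by cell the second step was 0.15 and 0.41 and no longer passed.

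Nrcam, which is shared by neurons and glia, rose by 1.5 ± 0.10 in WT (edgeR adjusted p = 6.15e-20) and by 1.36 ± 0.09 in vehicle-treated tumors (edgeR adjusted p = 1.66e-18) from progenitor to early cells. Its WT levels were 96.1 ± 11.6, 284 ± 11.4 and 349 ± 35.0 CPM along the 3 stages. Its late against early difference was 0.28 ± 0.10 in WT (edgeR adjusted p = 0.0417) and 0.42 ± 0.13 in vehicle-treated tumors (edgeR adjusted p = 0.0109), calls lost without any 1 WT animal (adjusted p from 0.0629 to 0.235) and without vehicle 3 (0.246) or 4 (0.0533), and both lost under DESeq2 (0.101 and 0.0916). With classes assigned cell by cell the latter turned to -0.34, and with finer clusters it was 0.01. Nfasc, which clusters sodium channels at axon initial segments and nodes, rose at the first step by 1.39 ± 0.23 in WT (edgeR adjusted p = 6.21e-07) and by 2.72 ± 0.16 in vehicle-treated tumors (edgeR adjusted p = 1.81e-20). It went from 18.1 ± 5.35 to 47.9 ± 18.0 CPM in WT. In vehicle-treated tumors it went from 6.54 ± 2.14 CPM, under the microglia-like 14.5 CPM, to 42.5 ± 14.3 CPM. Its second step was 0.25 ± 0.25 in WT (edgeR adjusted p = 0.516) and 0.99 ± 0.20 in vehicle-treated tumors (edgeR adjusted p = 5.08e-05), and the latter was -0.06 with classes assigned cell by cell.

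Chl1, the close homolog of L1, was low until the late stage, though WT progenitors and early cells averaged above the microglia-like 4.21 CPM. WT progenitors and early cells held 9.39 ± 3.40 and 15.0 ± 9.90 CPM, and their difference of 0.56 ± 0.35 did not pass the test (edgeR adjusted p = 0.172), although with classes assigned cell by cell it was 1.25 (0.00194). Late WT cells held 128, 134, 126, 76.6 and 186 CPM in cerebella 1 to 5, and late cells of vehicle-treated tumors held 112, 94.7, 45.2, 83.9 and 111 CPM. These late values exceeded every early value, of which the highest was 30.6 CPM, and the edgeR difference was 3.02 ± 0.26 in WT (adjusted p = 1.32e-14) and 4.73 ± 0.29 in vehicle-treated tumors (adjusted p = 2.13e-19).

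Ncam1, the main neural cell adhesion molecule, rose at both steps in all 15 animals, by 1.07 to 2.08 times per step from early to late cells and by 1.35 to 2.56 times from progenitor to early cells. Its WT levels were 110 ± 9.33, 230 ± 48.4 and 356 ± 54.4 CPM, and those of vehicle-treated tumors were 254 ± 38.8, 372 ± 31.5 and 599 ± 87.3 CPM. The second step was 0.67 ± 0.11 in WT (edgeR adjusted p = 3.22e-06) and 0.73 ± 0.09 in vehicle-treated tumors (edgeR adjusted p = 6.32e-10), the latter 0.12 with classes assigned cell by cell (0.506). Ncam2, its paralog, was close to absent in the lineage, with progenitor averages of 4.35 CPM in WT and 4.71 CPM in vehicle-treated tumors. It passed the test at 1 step, late against early cells of vehicle-treated tumors (24.2 ± 10.4 against 4.18 ± 2.13 CPM, log2 difference 2.41 ± 0.42, edgeR adjusted p = 6.33e-06).

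At the second step 5 of 7 members tested were higher and Cntn2 lower in WT, beside 24.3% of 6984 genes called (12.4% higher and 11.9% lower). Since the WT late cluster is not borne out as granule cells, that WT count is not shown to be a step of the lineage. In vehicle-treated tumors 7 of 8 were higher and Cntn2 lower, beside 34.7% of 10638 genes (17.7% higher and 17% lower). The median difference of the members was 0.60 in WT and 1.43 in vehicle-treated tumors.

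**Figure D1:**
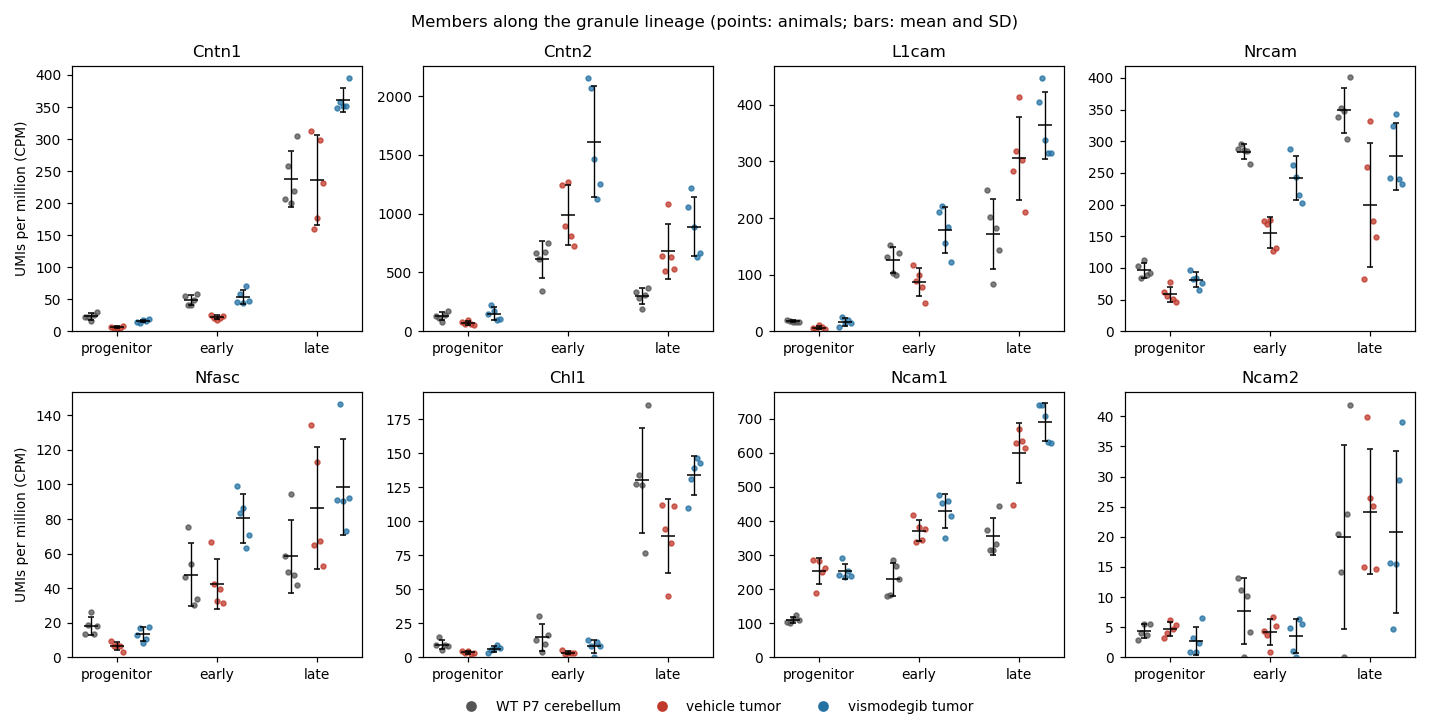
Level of each member in CPM (y axis) in progenitor, early and late cells (x axis) of WT cerebella, vehicle-treated and vismodegib-treated tumors; points are animals and bars are the mean with SD. Cntn2 is highest in early cells, from 344 CPM up in every animal, whereas Chl1 stays at or under 30.6 CPM until the late stage.

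Shares of cells were also counted for Cntn2. A UMI of Cntn2 was found in 24.4% of early cells of WT when each cell was thinned to 500 UMIs (47.5% with all UMIs), in 36.6% of those of vehicle-treated tumors (63.1%) and in 50.7% of those of vismodegib-treated tumors (76.1%). The thinned shares of microglia-like cells were 2.78%, 3.29% and 2.94%. The median early cell held 1096 UMIs in WT, 1416 in vehicle-treated and 1278 in vismodegib-treated samples, against 1747 to 2306 UMIs in microglia-like cells. A UMI of Chl1 in late cells was found in 5.61% of WT cells after thinning (11.9% with all UMIs), against 0.528% (2%) in early cells.

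Vehicle-treated tumors differed from WT most in their progenitors, where 6 of 8 members were lower and Ncam1 alone was higher. At this stage 41.4% of 11476 genes were called (19.7% higher and 21.7% lower), and the median over the members was -1.24. In early cells 3 of 6 tested were lower and 1 higher, beside 30.7% of 8779 genes (14.2% higher and 16.4% lower), with a median of -0.52. WT progenitor cluster 5, with 657 of 2502 cells, held none of its own markers among its 10 leading genes. Tumor early clusters 3 and 6 held none of theirs either. The stages thus need not match between tumors and WT.

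The largest fall was that of Cntn1. WT progenitors held 22.5, 21.6, 16.7, 26.0 and 30.3 CPM in cerebella 1 to 5, and progenitors of vehicle-treated tumors 7.24, 4.40, 5.16, 5.56 and 8.69 CPM in tumors 1 to 5. The groups did not overlap (log2 difference -2.01 ± 0.27, edgeR adjusted p = 2.19e-05), and the tumor values lay at the microglia-like level of 6.67 CPM. In early cells the gap was -1.33 ± 0.22 (edgeR adjusted p = 0.000149), from 41.5 to 58.8 CPM in WT and from 18.3 to 25.9 CPM in vehicle-treated tumors.

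L1cam was lower in tumor progenitors by -1.65 ± 0.31 (edgeR adjusted p = 0.000526), Nfasc by -1.60 ± 0.33 (0.000942), Chl1 by -1.48 ± 0.32 (0.00163), Cntn2 by -1.0 ± 0.19 (0.000518) and Nrcam by -0.86 ± 0.17 (0.000682). Of these, Nrcam was well above the microglia-like level in both groups, at 83.9 to 113 CPM in WT and 46.9 to 77.5 CPM in vehicle-treated tumors. Nrcam and Cntn1 were also the clearest differences in early cells, Nrcam with 265 to 295 CPM in WT against 127 to 176 CPM in vehicle-treated tumors (-1.05 ± 0.14, edgeR adjusted p = 2.24e-05). L1cam in early cells was called lower at -0.71 ± 0.21 (edgeR adjusted p = 0.0136), a call lost with a limit of 4 SD on cells (-0.25), with finer clusters (-0.33) and with classes assigned cell by cell (-0.13). Cntn2 in early cells differed by 0.52 ± 0.20 and did not pass (edgeR adjusted p = 0.0504), but it passed under DESeq2, without the filter on low counts, with a limit of 4 SD, with finer clusters and with classes assigned cell by cell (0.52 to 1.25, adjusted p from 0.000161 to 0.0354).

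Ncam1 went the other way. Tumor progenitors held 286, 190, 282, 249 and 262 CPM in vehicle-treated tumors 1 to 5, against 105, 100.1, 112, 125 and 109 CPM in WT cerebella 1 to 5. The groups did not overlap, and the difference was 1.07 ± 0.15 (edgeR adjusted p = 2.9e-05), with 0.52 ± 0.17 in early cells (edgeR adjusted p = 0.0232, and 0.0691 without WT 1 or 0.0689 without WT 2). The step of Ncam1 from progenitor to early stage was smaller in vehicle-treated tumors than in WT by 0.43 on the log2(CPM + 10) scale (0.54 against 0.98, exact permutation p = 0.0159). The Nfasc step was larger in tumors by 0.63 (1.64 against 1.01, exact p = 0.0159). Its start in tumor progenitors, 6.54 CPM, lay under the microglia-like 14.5 CPM, so the size of this difference is uncertain.

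Some markers of stage moved with these progenitor values. Neurod1, a driver of granule cell differentiation, stood at 2356 ± 161 CPM in WT progenitors and at 407 ± 73.9 CPM in those of vehicle-treated tumors. The 12 early-stage markers summed to between 6720 and 7701.5 CPM in WT progenitors and between 3399 and 3870 CPM in vehicle-treated ones, and 4 of 12 had a higher mean in tumors. The 13 late-stage markers overlapped, at 858 ± 93.9 CPM in WT and 1057 ± 186 CPM in tumors, 6 of 13 with a higher mean in tumors. The 10 Node B-like markers averaged 3066 and 5492 CPM without overlap. The part of this in the member values was not tested.

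Of the late clusters, tumor cluster 2 of vehicle-treated tumors was set against WT cluster 0, which is not borne out as granule cells. Cluster 2 held 197 of the 831 late cells with vehicle, 16 to 61 per tumor, and cluster 4, with 545, was not compared. The contrast thus does not stand for the late stage as a whole. In it 29.3% of 2635 genes were called (15.5% higher and 13.9% lower). Cntn2 was higher by 1.01 ± 0.21 (edgeR adjusted p = 0.000712), L1cam by 0.94 ± 0.27 (0.0089) and Ncam1 by 0.81 ± 0.19 (0.00193), and none of the 6 members tested was lower. The L1cam call was lost without vehicle 3 (0.61, edgeR adjusted p = 0.124). Cntn1 differed by 0.36 ± 0.22 and did not pass (edgeR adjusted p = 0.246), nor did Chl1 at -0.47 ± 0.34 (0.316) or Nrcam at -0.55 ± 0.22 (0.0627). Nrcam was called lower, however, without vehicle 3 (-0.83, edgeR adjusted p = 0.0111) and without WT 4 (-0.63, 0.0493).

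With vismodegib, members were called higher within the progenitor and early stages and none lower. In progenitors Cntn1, Cntn2 and L1cam were called higher, 3 of 8, L1cam at a level under its microglia-like one, where 3.26% of 11455 genes were called (1.07% higher and 2.19% lower). In early cells Cntn1, L1cam, Nfasc and Nrcam rose, 4 of the 6 tested, where 1.42% of 9457 genes were called (0.539% higher and 0.878% lower). The members' median was 0.96 in progenitors, 0.82 in early cells and 0.40 in late cells. Fewer cells of a kind and less RNA per cell cannot be told apart in sums over a class, since the cells within it may shift.

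Cntn1 was called in both stages, as was L1cam. Progenitors of vehicle-treated tumors held the 4.40 to 8.69 CPM given above, and those of vismodegib-treated tumors 1 to 5 held 15.3, 13.4, 16.8, 16.8 and 19.0 CPM. The groups did not overlap, the treated tumors stood above their own microglia-like level (5.14 CPM), and the difference was 1.38 ± 0.25 (edgeR adjusted p = 0.00636). In early cells, vehicle-treated tumors held 25.9, 20.7, 18.3, 20.9 and 24.5 CPM and vismodegib-treated tumors 46.4, 58.9, 44.9, 70.4 and 47.4 CPM, again without overlap (1.31 ± 0.20, edgeR adjusted p = 0.00311). WT early cells held 49.3 ± 7.83 CPM. With classes assigned cell by cell the progenitor difference was 0.98 (edgeR adjusted p = 0.0842).

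The 10 tumors fall into a pair of sets that an earlier look at these libraries had set apart and that the labels do not name as batches, the first of which holds vehicle 1 and 3 and vismodegib 1, 2 and 3. Within the first set Cntn1 in progenitors went from 6.20 to 15.2 CPM and within the second from 6.22 to 17.9 CPM. In early cells it went from 22.1 to 50.1 CPM and from 22.0 to 58.9 CPM. These are means of 2 or 3 tumors each, given without a test.

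Cntn2 rose in progenitors, from 54.0 to 91.8 CPM in vehicle-treated tumors to 149, 227, 168, 92.5 and 102 CPM in vismodegib-treated tumors 1 to 5. The lowest treated value lay just above the highest vehicle value, and the difference was 1.08 ± 0.22 (edgeR adjusted p = 0.0132, and 0.88 with 0.0909 when classes were assigned cell by cell). By set it went from 85.3 to 182 CPM and from 60.1 to 97.3 CPM. Progenitor clusters with unlike Cntn2 levels changed in share with treatment, as given below, and the part of that in the rise was not tested. In early cells the treated tumors held 2152, 2065, 1463, 1123 and 1253 CPM against the 727 to 1268 CPM of vehicle, which overlap, and the difference of 0.71 ± 0.20 did not pass (edgeR adjusted p = 0.106), although DESeq2 called it (adjusted p = 0.0272), as did edgeR with the tumor set as a term (0.59, 0.0141), with the replicate block (0.70, 0.043) and without the filter on low counts (0.70, 0.0203). Within the sets, early Cntn2 went from 1255 to 1893.5 CPM and from 811 to 1188 CPM. Early cluster 3, with 284 CPM of Cntn2 in vehicle-treated tumors, went from 34.7% to 17.9% of early cells and cluster 10, with 1839 CPM, from 15.9% to 30.3% (exact permutation p = 0.0714), and the part of this in the difference was not tested.

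L1cam rose in early cells from 116, 88.9, 99.9, 78.9 and 50.6 CPM in vehicle-treated tumors 1 to 5 to 211, 221, 156, 184 and 123 CPM in vismodegib-treated ones, without overlap (1.07 ± 0.21, edgeR adjusted p = 0.0162). By set it went from 108 to 196 CPM and from 72.8 to 154 CPM. L1cam averaged 10.9 CPM in early cluster 3 of vehicle-treated tumors and 224 CPM in cluster 6, whose shares changed with treatment as given below, and the part of that in the rise was not tested. Within clusters 5, 6 and 10 it was 1.39, 1.42 and 1.36 times higher with vismodegib (exact permutation p = 0.429, 0.0635 and 0.19), against 2.09 times in cluster 3. Its call in progenitors (1.45 ± 0.36, edgeR adjusted p = 0.0381) rested on 16.2 ± 6.96 against 6.29 ± 2.88 CPM, of which the former lay under the microglia-like level of treated tumors (22.4 CPM), and it was lost in all fits with 1 tumor left out (edgeR adjusted p from 0.0612 to 0.104) except those without vehicle 3 or vismodegib 1. That call was also lost with finer clusters (0.0507) and with classes assigned cell by cell (0.0772). The early call was lost without vismodegib 1 (0.0544) or 4 (0.0515), with a limit of 4 SD (0.0773) and with finer clusters (0.118).

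Nrcam rose in early cells from 156 ± 24.1 to 242 ± 34.7 CPM (0.65 ± 0.14, edgeR adjusted p = 0.0358), with every treated tumor above every vehicle tumor, and Nfasc from 42.5 ± 14.3 to 80.5 ± 14.1 CPM (0.94 ± 0.20, edgeR adjusted p = 0.0332), where vehicle 1 at 66.8 CPM overlapped the treated range. By set, Nrcam went from 175 to 265 CPM and from 143 to 209 CPM, and Nfasc from 49.7 to 89.6 CPM and from 37.7 to 66.9 CPM. Leaving out 1 tumor cost Nrcam its call (edgeR adjusted p from 0.0571 to 0.111) except for vehicle 1, vehicle 3 and vismodegib 5, and Nfasc its call (0.0515 to 0.101) except for vehicle 1 and vismodegib 5. Both were also lost with a limit of 4 SD, with finer clusters and with classes assigned cell by cell (edgeR adjusted p from 0.0769 to 0.421).

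Nfasc in progenitors differed by 1.10 ± 0.30 and did not pass (edgeR adjusted p = 0.0668), but it did under DESeq2 (0.0187) and with the tumor set as a term (0.0366). Its means of 13.3 CPM with vismodegib and 6.54 CPM with vehicle lay under the microglia-like ones of 24.8 and 14.5 CPM. Nrcam in progenitors stood at 81.2 ± 11.7 CPM with vismodegib and 58.6 ± 12.1 CPM with vehicle and did not pass (0.48 ± 0.15, edgeR adjusted p = 0.1252), but it did with the tumor set as a term (0.43, 0.0499) and without vehicle 3 (0.59, 0.0338).

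Ncam1 passed in none of the 3 stages, and Ncam2, tested in progenitors alone because of its low counts elsewhere, did not pass there. Ncam1 in progenitors stood at 254 ± 38.8 CPM with vehicle and 253 ± 22.5 CPM with vismodegib (difference 0.00 ± 0.13, edgeR adjusted p = 0.997), and in early cells at 372 ± 31.5 and 430 ± 50 CPM (0.22 ± 0.13, edgeR adjusted p = 0.55). Ncam2 in progenitors differed by -0.59 ± 0.44 (edgeR adjusted p = 0.617) at a level of 2.76 to 4.71 CPM. These values do not show that the levels were equal.

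In late cells edgeR called 0 of 6386 genes (309 at an unadjusted p under 0.05) and DESeq2 called 2, neither of them a member. Cntn1 nonetheless stood at 349, 358, 351, 351.5 and 395 CPM in vismodegib-treated tumors 1 to 5 and at 313, 159.5, 177, 299 and 231 CPM in vehicle-treated tumors, values that did not overlap (0.64 ± 0.18, edgeR adjusted p = 0.638). Chl1 differed by 0.64 ± 0.21 (edgeR adjusted p = 0.755). With finer clusters both passed, Cntn1 at 0.98 (edgeR adjusted p = 0.0169) and Chl1 at 1.2 (0.00796). With classes assigned cell by cell Cntn1 (1.25, edgeR adjusted p = 0.0116), Chl1 (1.74, 0.0168) and L1cam (0.87, 0.0356) passed.

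**Figure D2:**
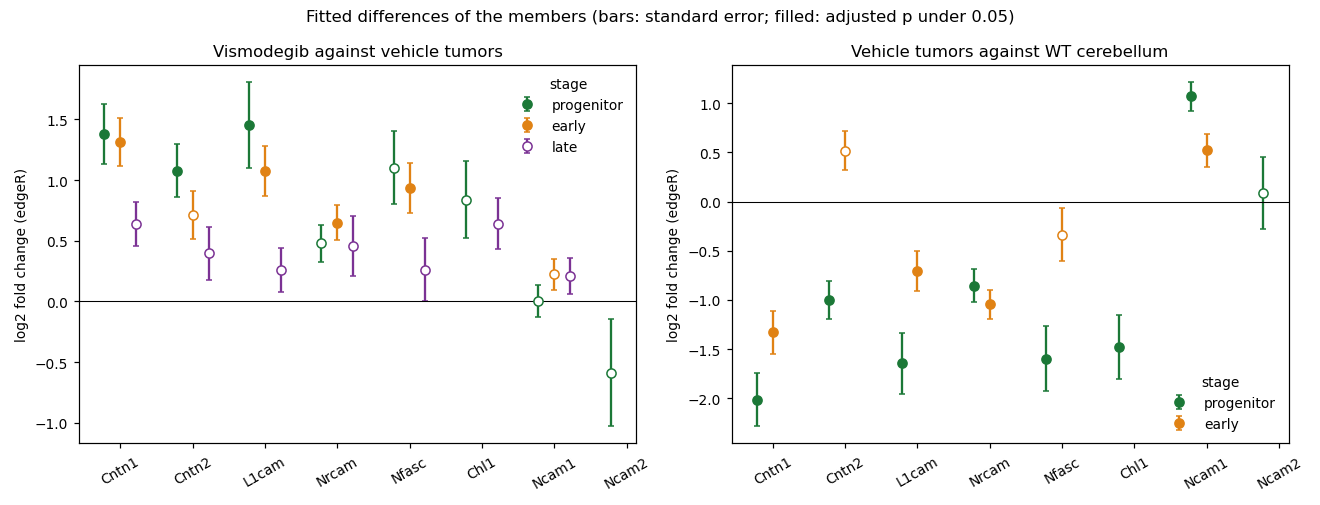
Log2 difference (y axis) of each member (x axis) by edgeR with its SE (bars), for vismodegib-treated against vehicle-treated tumors in 3 stages (left) and for vehicle-treated tumors against WT cerebella in 2 stages (right); filled points have an adjusted p under 0.05. Cntn1 lies at 1.38 and 1.31 on the left and at -2.01 and -1.33 on the right, and Ncam1 at 0.00 and 1.07 in progenitors.

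Markers moved within these stages too. Neurod1 in progenitors went from 407 ± 73.9 CPM with vehicle to 742.5 ± 174 CPM with vismodegib, and the 12 early-stage markers summed to between 4125 and 4793 CPM with vismodegib, above the 3399 to 3870 CPM of vehicle. Of these 12 markers, 9 had a higher mean with vismodegib. In early cells the 10 markers of Node B-like progenitors, Gli1 and Ptch1 among them, summed to between 2006.5 and 2566 CPM with vismodegib and to between 2849 and 3919 CPM with vehicle. The 12 early markers overlapped between treatments in early cells, with a higher mean under vismodegib for 11. Markers of maturing oligodendrocytes, where Nfasc is high, were also present in these sums. The 9 of them averaged 196 CPM with vehicle and 365 CPM with vismodegib in progenitors, 8 of 9 higher in mean, and 279 and 557 CPM in early cells, 7 of 9 higher, with sums that overlapped. The 6 precursor markers averaged 331 and 333 CPM in progenitors and 404 and 241 CPM in early cells, the latter without overlap. The part of these shifts in the member values was not tested.

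The makeup of the granule lineage changed with treatment, and the members were compared over the whole lineage with and without that shift. Late cells made up 6.28% ± 3.49 of the lineage with vehicle and 33.9% ± 15.7 with vismodegib (SD, n = 5 and 5, exact permutation p = 0.00794), and progenitors 62.9% ± 6.31 and 35.4% ± 9.53 (exact p = 0.00794). The early share was 30.8% ± 3.70 and 30.7% ± 6.85 (exact p = 0.968). Over 11 of the 12 granule clusters, those with at least 10 cells in every tumor, each member was then computed with the tumor's own mix of clusters and with 1 mix shared by all tumors. Both were computed for the members alone, so the share of all genes that would pass is not known. How many members pass is therefore not read as a trait of the members, and these exact p-values are not adjusted.

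Cntn1 over the lineage stood at 21.3, 12.9, 19.7, 27.0 and 15.9 CPM in vehicle-treated tumors 1 to 5 and at 71.3, 88.0, 90.5, 156 and 188 CPM in vismodegib-treated ones, 6.14 times higher (exact permutation p = 0.00794). With the shared mix it was 53.2 ± 15.8 against 76.5 ± 2.27 CPM, 1.44 times higher (exact p = 0.0476), and vehicle 1 at 79.9 CPM lay above all treated tumors. Chl1 went from 6.54 times (exact p = 0.00794) to 1.58 times (exact p = 0.0317), and Nrcam from 1.94 times (exact p = 0.00794) to 1.29 times (exact p = 0.0397).

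The other members did not pass with the shared mix. Cntn2 was 2.17 times higher with each tumor's own mix and 1.35 times with the shared one (exact permutation p = 0.151), L1cam 3.71 and 1.26 times (exact p = 0.159), and Nfasc 2.74 and 1.30 times (exact p = 0.246). Ncam1 was 1.38 times higher with its own mix (exact p = 0.00794) and 0.992 times with the shared mix (exact p = 0.905). Ncam2 passed with neither (1.59 times, exact p = 0.452, and 0.645 times, exact p = 0.143).

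**Figure D3:**
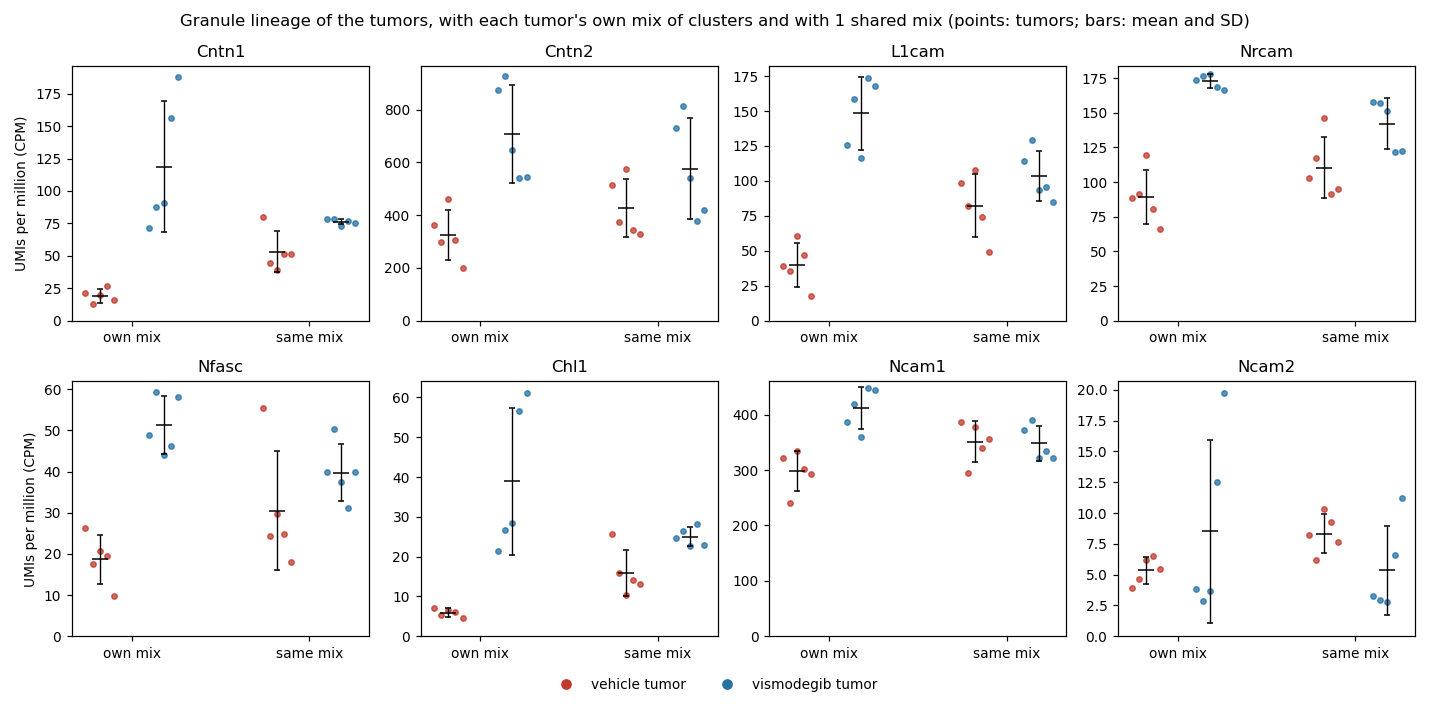
Level of each member over the granule lineage in CPM (y axis) in vehicle-treated and vismodegib-treated tumors, with each tumor's own mix of clusters and with 1 mix shared by all tumors (x axis); points are tumors and bars are the mean with SD. Cntn1 parts by 6.14 times with the own mix and by 1.44 times with the shared mix, and Ncam1 by 1.38 and 0.992 times.

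The stages themselves were also mixtures. Within progenitors, cluster 0 held 39% of cells with vehicle and 20.4% with vismodegib (exact permutation p = 0.00794), cluster 9 held 9.23% and 19.9% (exact p = 0.00794), cluster 1 held 27.7% and 36.7% (exact p = 0.0159) and cluster 8 held 10.8% and 5.87% (exact p = 0.0159). Cntn2 averaged 49.3 CPM in cluster 0 and 227 CPM in cluster 9 of vehicle-treated tumors, and Cntn1 6.45 and 8.74 CPM. Within the late stage, cluster 2 held 24.3% and 48.6% and cluster 4 held 65.5% and 46.5% (exact p = 0.0397 for both). Within the early stage, cluster 3 held 34.7% of cells with vehicle and 17.9% with vismodegib (exact permutation p = 0.00794) and cluster 6 held 20.3% and 30.9% (exact p = 0.0317). The part of these shifts in the rise of Cntn1 over a stage was not tested. Taken cluster by cluster, Cntn1 was higher with vismodegib in 3 of the 4 early clusters at an unadjusted exact p under 0.05. It went from 5.87 to 18.4 CPM in cluster 3 (exact p = 0.0159), from 10.4 to 27.6 CPM in cluster 5 (exact p = 0.00794) and from 27.0 to 62.5 CPM in cluster 10 (exact p = 0.0317), and in cluster 6, the early cluster where it was highest, from 72.0 to 93.2 CPM (exact p = 0.167). In progenitors it went from 6.45 to 16.2 CPM in cluster 0 (exact p = 0.00794), from 4.82 to 13 CPM in cluster 1 (exact p = 0.0159) and from 8.74 to 28.8 CPM in cluster 9 (exact p = 0.00794). Progenitor clusters 7 (4.19 and 11.4 CPM, exact p = 0.0873) and 8 (6.84 and 9.11 CPM, exact p = 0.841) did not pass, nor did the late clusters 2, 4 and 15 (exact p from 0.111 to 0.365).

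The other members were taken cluster by cluster in the same way. L1cam went from 2.90 to 13 CPM in progenitor cluster 1 (exact permutation p = 0.0159), from 4.87 to 11 CPM in cluster 7 (exact p = 0.0238) and from 10.9 to 22.8 CPM in early cluster 3 (exact p = 0.0159), levels at or near its microglia-like ones. Cntn2 had none in the 4 early clusters, for instance 1839 against 2268 CPM in cluster 10 (exact permutation p = 0.333), and in progenitors it went from 49.3 to 89.8 CPM in cluster 0 (exact p = 0.00794) and from 67.1 to 155.5 CPM in cluster 7 (exact p = 0.0238). In late cluster 15 Cntn2 went from 251.5 (n = 4) to 472 CPM (n = 5, exact p = 0.0317). Nfasc in early cells differed in cluster 5 only, from 36.8 to 87.4 CPM (exact p = 0.00794), and Nrcam in cluster 6 only, from 212 to 291.5 CPM (exact p = 0.0159), besides progenitor cluster 7 (56.0 and 81.3 CPM, exact p = 0.0238). In late cells Chl1 went from 106 to 182 CPM in cluster 2 (exact p = 0.0476), while cluster 4 held 51.3 and 51.8 CPM (exact p = 0.992). Chl1 also differed at low levels in progenitor cluster 9 (2.16 and 13.2 CPM, exact p = 0.0238) and early cluster 10 (0.619 and 8.01 CPM, exact p = 0.0476), and Ncam2 in progenitor cluster 8 (11.0 CPM with vehicle and 0 with vismodegib, exact p = 0.00794). Ncam1 had no exact p under 0.05 in any cluster. None of these p-values is adjusted over clusters or members, and no share of all genes was computed for them.

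The difference on the log2(CPM + 10) scale between differentiating cells, early and late summed, and progenitors was compared between treatments as well. It holds the shift from early to late cells given above along with any change within a stage, and it was computed for the members alone, without a share of all genes. So measured it was wider with vismodegib for Chl1 by 1.45 (2.32 ± 0.30 against 0.87 ± 0.28, exact permutation p = 0.00794), for Cntn1 by 1.08 (exact p = 0.00794), for L1cam by 0.49 (exact p = 0.0238), for Ncam1 by 0.44 (exact p = 0.00794) and for Nrcam by 0.23 (exact p = 0.0317), and narrower for Cntn2 (-0.56, exact p = 0.0238). A pseudocount of 1 in place of 10 moved L1cam to 0.00 (exact p = 0.992) and Nrcam to 0.21 (exact p = 0.0556), one of 50 moved Cntn2 to -0.32 (exact p = 0.0714), and Nrcam had an exact p of 0.0635 without vehicle 1, 3 or 4 or vismodegib 2, 3 or 4. Other members gained: Ncam2 with a pseudocount of 1 (1.28, exact p = 0.0476) and Nfasc with one of 50 (0.33, exact p = 0.0238). Nfasc also passed without vehicle 1 (exact p = 0.0159) or vismodegib 5 (0.0476), and Ncam2 without vismodegib 2 (0.0159).

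With 1 differentiating stage at a time, a comparison added after these values had been seen, 1 member still passed. Cntn2 in late cells alone was narrower, at 2.53 ± 0.18 above progenitors with vismodegib and 3.07 ± 0.24 with vehicle (-0.53, exact permutation p = 0.00794). With early cells alone 0 of 8 members had an exact p under 0.05, Cntn1 at 0.28 (exact p = 0.0794), Nrcam at 0.19 (0.0635) and Ncam1 at 0.20 (0.0714) being nearest. With late cells alone Chl1 stood at 0.35 (exact p = 0.0635), Cntn1 at -0.06 (0.69) and Ncam1 at 0.21 (0.31). A wider difference between progenitors and a single later stage was thus not shown for any member.

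Against the granule lineage, oligodendrocyte-like cells were higher in Cntn1, Nfasc and Ncam2 and astrocyte-like cells, Bergmann glia included, in Cntn1, Nrcam and Ncam2, in WT and in vehicle-treated tumors, whereas Cntn2 was lower in both. Cntn2 in WT astrocyte-like cells (38.9 ± 7.26 CPM) and oligodendrocyte-like cells (26.6 ± 22.3 CPM) lay under its microglia-like level. Cntn1 was higher than in granule cells by 2.03 ± 0.19 in WT astrocyte-like (edgeR adjusted p = 2.27e-13) and 2.94 ± 0.18 in WT oligodendrocyte-like cells (1.15e-19), and by 2.97 ± 0.30 (7e-10) and 5.43 ± 0.19 (3.43e-21) in those of vehicle-treated tumors. Cntn2 was lower by -2.58 ± 0.24 (6.64e-13) and -3.11 ± 0.30 (1.61e-12) in WT and by -1.74 ± 0.24 (4.29e-07) and -2.82 ± 0.24 (1.89e-11) in vehicle-treated tumors. Chl1 in astrocyte-like cells of vehicle-treated tumors was higher by 5.10 ± 0.31 (edgeR adjusted p = 5.26e-15).

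These are contrasts with the sum of the lineage, of which progenitors made up 49.9% in WT and 62.9% with vehicle. Late cells alone held as much Cntn1 as astrocyte-like cells or more, with means of 238 against 213 CPM in WT and 236 against 104 CPM in vehicle-treated tumors, and the same was so of Nrcam, at 349 against 334 CPM and 199 against 187 CPM.

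The 4 comparisons of glia with the granule lineage called 17 members higher and 4 lower, of 26 tests, and the 4 lower were Cntn2 each time. In WT astrocyte-like cells 3 of 6 members tested were higher, beside 55.8% of 4342 genes called (27.2% higher and 28.5% lower), and in oligodendrocyte-like cells 4 of 6, beside 43.9% (22.2% higher and 21.6% lower). In vehicle-treated tumors the counts were 5 of 7 in both, beside 48.9% (24.8% higher and 24.1% lower) and 53.2% (25.3% higher and 27.9% lower) of 4467 genes.

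Ncam2, which was near 0 in granule cells, stood at 248, 242, 299, 255 and 223.5 CPM in the oligodendrocyte-like cells of WT cerebella 1 to 5, with none in the 4 WT samples of microglia-like cells. Against granule cells (7.57 ± 2.46 CPM) that was a log2 difference of 5.06 ± 0.27 (edgeR adjusted p = 8.79e-22), and it was 5.49 ± 0.24 in vehicle-treated tumors (edgeR adjusted p = 8.97e-19). Astrocyte-like cells held less Ncam2, 70.6 ± 29.5 CPM in WT, still 3.35 ± 0.33 above granule cells (edgeR adjusted p = 1.72e-12). Treatment did not move it past the test in oligodendrocyte-like cells (0.10, edgeR adjusted p = 0.971).

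Within the oligodendrocyte lineage Cntn1 was higher in precursors, though still present in maturing cells, and Nfasc was higher in maturing cells. Cntn1 was highest in precursors, at 658 ± 98.9 CPM (SD, n = 5) in WT and 1111 ± 135 CPM (n = 5) in vehicle-treated tumors, against 189 ± 37.8 CPM (n = 3) and 457 ± 272 CPM (n = 4) in maturing cells. The WT precursors were a division of 144 and one of 29 cells, neither with a precursor marker among its 10 leading genes, so that name rests on the summed score. Nfasc, whose glial form belongs to the paranodal loops of myelin, was at 62.7 ± 28.4 CPM in WT precursors and 1186 ± 297 CPM in maturing cells, and at 77.3 ± 27.9 and 744 ± 374 CPM in vehicle-treated tumors. In these groups no maturing sample of Nfasc overlapped the precursor samples.

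Over the oligodendrocyte-like class Cntn1 was higher in vehicle-treated tumors than in WT (993, 861, 804, 649 and 955 CPM in tumors 1 to 5 against 387 to 559 CPM, 0.85 ± 0.19, edgeR adjusted p = 0.00186), and the groups did not overlap. In the same class the 6 precursor markers summed to between 1013 and 2283.5 CPM in WT and between 4157.5 and 5058 CPM in vehicle-treated tumors, 6 of 6 higher in mean, and the 10 Node B-like markers averaged 675 and 1904 CPM, also without overlap. Their part in the result was not tested. Nfasc was called lower (-0.87 ± 0.32, edgeR adjusted p = 0.0439), a call lost without WT 2, 3 or 5 or vehicle 2, 3, 4 or 5 (edgeR adjusted p from 0.0532 to 0.164) and under DESeq2 (0.0604). These were 2 of 5 members tested, beside 26.8% of 2435 genes (12.7% higher and 14.1% lower).

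With vismodegib, Nfasc rose in oligodendrocyte-like cells, the 1 of 5 members tested that passed, where 3.91% of 3201 genes were called (2.53% higher and 1.37% lower). Vehicle-treated tumors 1 to 5 held 678, 203, 228, 276 and 252.4 CPM, and vismodegib-treated tumors 1, 2, 4 and 5 held 3363, 1029, 474 and 1905 CPM, tumor 3 having under 10 such cells. Vehicle 1 overlapped vismodegib 4, and the difference was 2.5 ± 0.46 (edgeR adjusted p = 0.00751). By set the means went from 453 to 2196 CPM and from 244 to 1189 CPM. Maturing cells made up 27.9% ± 12.3 of the class with vehicle and 59.5% ± 7.87 with vismodegib (exact permutation p = 0.00794), and the 9 markers of maturing cells summed to between 3734 and 26592 CPM with vehicle and between 25821 and 91214 CPM with vismodegib, higher in mean for 9 of 9. Within maturing cells Nfasc stood at 1302, 512, 582 and 578 CPM in 4 vehicle-treated tumors and at 4594, 706 and 2439 CPM in 3 vismodegib-treated ones, which overlap. How much of the rise went with the shift of cells was not tested.

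In astrocyte-like cells Cntn1 rose with vismodegib, the 1 of 6 members tested that passed, where 6.22% of 2105 genes were called (3.75% higher and 2.47% lower). It stood at 75.7, 41.6, 32.5, 206 and 164 CPM in vehicle-treated tumors 1 to 5 and at 425, 276, 595, 552 and 365 CPM in vismodegib-treated ones, without overlap (1.84 ± 0.33, edgeR adjusted p = 0.00265), beside 213 ± 56.7 CPM in WT. The class held 10 to 151 cells per tumor with vehicle and 14 to 224 with vismodegib, so the values of the smaller samples rest on few cells. By set Cntn1 went from 54.1 to 432 CPM and from 137 to 458.5 CPM. The call was lost with finer clusters (1.30, edgeR adjusted p = 0.0588) and with classes assigned cell by cell (1.44, 0.0823). The 12 astrocyte markers in this class summed to between 16322 and 63022 CPM with vehicle and between 54242 and 64225 CPM with vismodegib, higher in mean for 11 of 12, and the 11 oligodendrocyte markers to between 552 and 1766 CPM and between 1022 and 2336 CPM. Within these the 9 markers of maturing oligodendrocytes averaged 434 CPM with vehicle and 1193 CPM with vismodegib, which overlap, and the 6 of their precursors 511 and 310 CPM, 0 of 6 higher in mean. The 10 Node B-like markers summed to between 1175 and 3053.5 CPM with vehicle and between 656 and 1276 CPM with vismodegib. The part of these in the result was not tested.

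The other members in astrocyte-like cells lay under the threshold. Chl1, with 211 ± 22.1 CPM in vehicle-treated and 359 ± 117 CPM in vismodegib-treated tumors, differed without overlap by 0.79 ± 0.25 (edgeR adjusted p = 0.058), Nrcam by 0.73 ± 0.25 (0.0774), Nfasc by 0.86 ± 0.37 (0.174) and Cntn2 by 0.99 ± 0.38 (0.1247). Nfasc was at 31.1 ± 10.9 CPM in WT astrocyte-like cells and at 0, 343, 260, 232 and 106 CPM in those of vehicle-treated tumors 1 to 5. That contrast did not pass the filter on low counts, so no test of it is given. Against WT, Nrcam was lower in vehicle-treated tumors (-0.71 ± 0.24, edgeR adjusted p = 0.0292), 1 of 4 tested, beside 24.6% of 2468 genes (11.9% higher and 12.7% lower), and finer clusters took that difference to -0.05. That call was also lost without WT 2 or 4 or vehicle 1 or 2 (edgeR adjusted p from 0.0505 to 0.0693). Other losses came with a limit of 4 SD (-0.49, edgeR adjusted p = 0.159), with classes assigned cell by cell (-0.38, 0.261) and without the filter on low counts (-0.81, 0.0827). In the same class and contrast the 10 Node B-like markers averaged 590 CPM in WT and 1977 CPM in vehicle-treated tumors, the 13 late-stage markers 560 and 1501 CPM and the 6 oligodendrocyte precursor markers 78.8 and 511 CPM, each without overlap, and their part in the result was not tested.

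**Figure D4:**
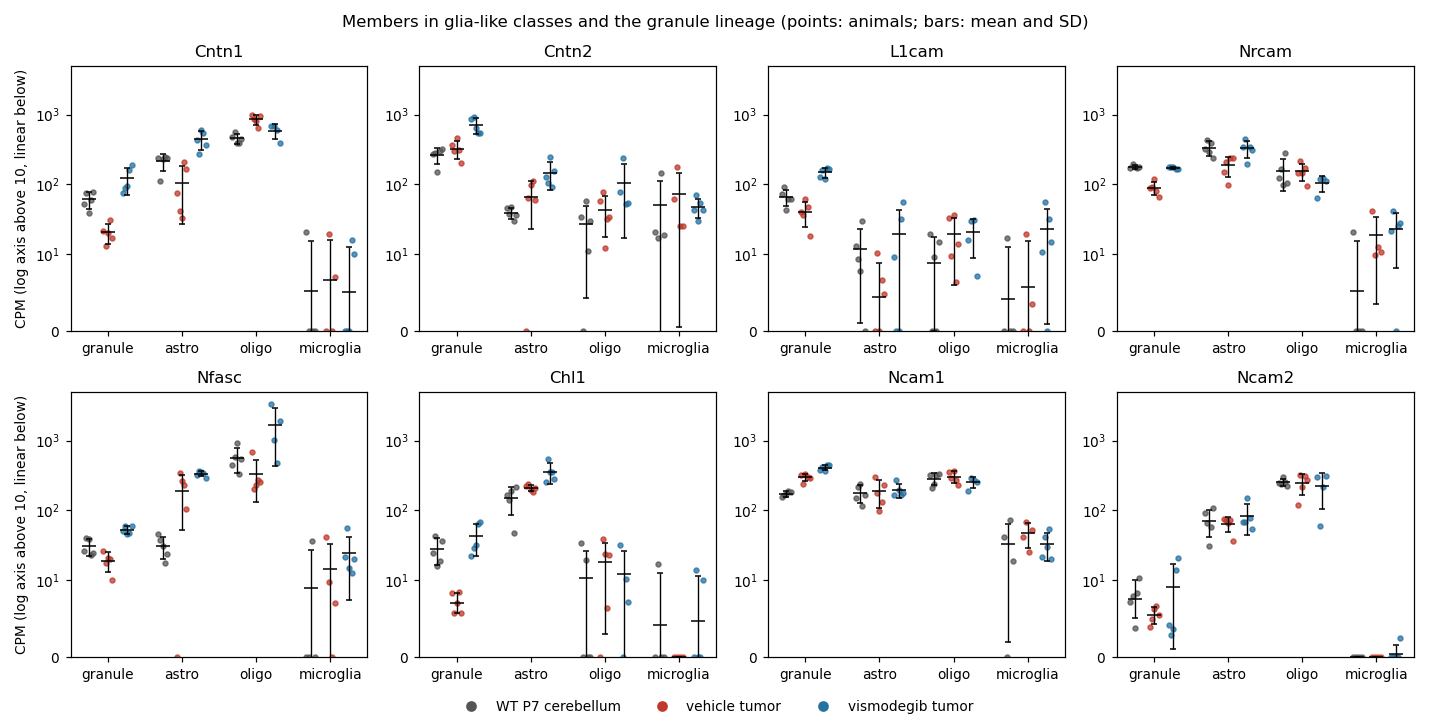
Level of each member in CPM (y axis, linear under 10 and logarithmic above) in granule-lineage, astrocyte-like, oligodendrocyte-like and microglia-like cells (x axis) of the 3 groups; points are animals and bars are the mean with SD. Ncam2 lies at 7.57 CPM in WT granule cells and 253 CPM in WT oligodendrocyte-like cells, and Cntn2 at 266 and 26.6 CPM.

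The neurons of WT cerebella outside the granule lineage placed Chl1 apart from the rest. Its order of WT levels was led by Purkinje-like cells (228 ± 64.7 CPM, n = 3) and GABAergic interneuron-like cells (224 ± 63.5 CPM, n = 5), followed by astrocyte-like cells (152 ± 64.5 CPM) and the late stage (cluster 0, 130 ± 38.7 CPM), each overlapping the next. For Cntn2 the order ran from the early to the late stage, which overlapped, and then, without overlap, to progenitors. For Cntn1 precursors of oligodendrocytes stood alone above the late stage. L1cam was led by the late stage, Purkinje-like cells (154 ± 14.7 CPM, n = 3) and the early stage, a set whose neighbors overlapped and whose lowest lay clear of the interneuron-like cells (60.9 ± 6.83 CPM). Nrcam and Ncam1 were spread over neurons and glia, and for both the first 9 of 11 classes lay above vascular fibroblast-like and microglia-like cells. These are descriptions without a test.

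Likeness across 19 class profiles of WT and vehicle-treated samples, on the log2(mean CPM + 10) scale, was computed against 9252 genes, whose profiles share libraries and depth. The pattern of Cntn2 was nearest to Klhl29 (r = 0.938), Uncx (0.908) and Reln (0.898), and that of Cntn1 to Pcdh7 (0.957), Opcml (0.941) and Brinp3 (0.937). L1cam lay nearest to Syp (0.948), Chgb (0.932) and Pacsin1 (0.931), and Nrcam to Rimklb (0.935), Ctnna2 (0.934) and Zcchc18 (0.927). Nfasc lay nearest to Lsamp (0.906), Nap1l5 (0.895) and Nlgn3 (0.892), Chl1 to Abat (0.907), Atp1b1 (0.902) and D3Bwg0562e (0.882), Ncam1 to Fam171b (0.941), Zcchc18 (0.940) and 1110051M20Rik (0.932), and Ncam2 to Lrrc4c (0.954), Slc35f1 (0.941) and Rap1gap (0.939). Among the members Cntn1 and Ncam2 were most alike (0.89) and Cntn2 and Ncam2 least (-0.23).

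The partners of these molecules were 47 genes in 6 lists. From progenitor to early stage 15 of 24 tested rose and 5 fell in WT, beside 25.4% and 27.5% of all genes, and 22 and 11 of 36 in vehicle-treated tumors, beside 29.7% and 32.4%. Among membrane anchors Ank2, an ankyrin that binds L1-family molecules, rose by 1.89 ± 0.13 in WT (edgeR adjusted p = 4.9e-20), from 62.0 to 241 CPM, while the ERM proteins Msn (-1.08 ± 0.23, adjusted p = 7.02e-05) and Ezr (-1.06 ± 0.11, adjusted p = 1.01e-12) fell. Among signaling partners Gap43, a growth cone protein, rose by 1.82 ± 0.07 (adjusted p = 6.45e-32) and Pak1, a kinase of the cytoskeleton, by 1.61 ± 0.16 (adjusted p = 3.49e-13). Among ligands Mdk (midkine) fell by 0.88 on the log2 scale (edgeR adjusted p = 1.63e-11). The WT late cluster, which is not borne out as granule cells, had 3 of 24 partners higher and 8 lower than early cells, beside 12.4% and 11.9% of all genes. In that cluster Mdk was lower than in early cells by 2.10 (edgeR adjusted p = 2.46e-16), Ptn (pleiotrophin) by 1.53 (adjusted p = 2.9e-27) and Gap43 by 0.80 (adjusted p = 1.37e-14). Pak1 was higher there by 1.79 (edgeR adjusted p = 1.18e-16) and Ank2 by 1.00 (adjusted p = 1.61e-10). In vehicle-treated tumors 15 of 36 partners were higher and 9 lower in late than in early cells, beside 17.7% and 17% of all genes.

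St8sia2, a polysialyltransferase that acts on NCAM, rose from 8.79 to 32.7 CPM between progenitor and early cells of vehicle-treated tumors (1.83 ± 0.16, edgeR adjusted p = 1.4e-14), and in tumor progenitors it was lower than in WT by -1.77 ± 0.31 (adjusted p = 0.000254). Cntnap1 (Caspr), the partner of Cntn1 at paranodes, was higher in tumor progenitors by 1.81 ± 0.34 (adjusted p = 0.000419) and in tumor early cells by 1.94 ± 0.37 (adjusted p = 0.000467), where Cntn1 was lower. Ptn was lower in tumor progenitors, at 340 ± 36.0 against 1794 ± 248 CPM (-2.54 ± 0.15, edgeR adjusted p = 7.67e-09). In all, 12 of 32 partners tested were higher and 6 lower in tumor progenitors, beside 19.7% and 21.7% of all genes, and 6 and 7 of 29 in early cells, beside 14.2% and 16.4%.

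With vismodegib, no partner rose and 2 of 34 fell in progenitors, 0 of 32 passed in early cells and 0 of 25 in late cells by edgeR, beside 3.26%, 1.42% and 0% of all genes. At an unadjusted p under 0.05 the 3 stages gave 13, 10 and 1, and DESeq2 called 5, 3 and 0. Fgfr1, a receptor that NCAM and L1 can engage, fell in progenitors from 53.1 ± 11.2 to 30 ± 4.33 CPM (-0.79 ± 0.17, edgeR adjusted p = 0.0198). In glia 1 of 23 partners rose and 1 fell in astrocyte-like cells, beside 3.75% and 2.47% of all genes, and 2 of 24 rose and 0 fell in oligodendrocyte-like cells, beside 2.53% and 1.37%. Ncan (neurocan), a matrix ligand of L1 and NCAM, rose in astrocyte-like cells from a mean of 521 CPM to 1851 ± 1301 CPM (1.83 ± 0.40, edgeR adjusted p = 0.00985), and Mag, a glycoprotein of myelin, rose in oligodendrocyte-like cells from 330 ± 330 to 2255 ± 877 CPM (2.85 ± 0.53, edgeR adjusted p = 0.00751), in the same class and direction as Nfasc and beside the same shift of that class to maturing cells (27.9% to 59.5%), whose part was not tested. The other called partners, named after their values had been seen, were Bcan (brevican), a matrix proteoglycan, in progenitors (-2.28 ± 0.51, edgeR adjusted p = 0.0233), Ezr in astrocyte-like cells (-0.99 ± 0.29, edgeR adjusted p = 0.0479) and Bace1, a protease that sheds L1-family molecules, in oligodendrocyte-like cells (1.45 ± 0.39, edgeR adjusted p = 0.0431).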

How the data were processed

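Drop-seq UMI counts per gene and barcode were deposited by the authors for each of the 15 samples, raw and not normalized. Per the submitters' processing notes, bcl2fastq 2.18, STAR 5.4b and Seurat 2.3.0 were used with builds mm10 and hg19. The authors aligned reads to a mouse genome with the transgene sequences added. In tumor samples they first dropped barcodes of spiked-in human cells. For the annotation version: not given in the sources used here.

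A barcode counted as a cell from 500 UMIs and 500 detected genes upward, unless its UMIs, genes or mitochondrial share lay more than 5 SD over its animal's median. That limit is the only guard against doublets. Tumor and WT cells were clustered separately (30 neighbors, Louvain resolution 0.8, best of 10 starts) in Python 3.11.15 with numpy 2.4.6, scipy 1.17.1 and scikit-learn 1.9.0, with members, partners, hemoglobins and Ttr held out. Names came from marker lists, by a rule settled after clusters had been seen, and clusters of S to M phase and of G1 to early S phase (Node A-like and B-like) were summed as progenitors, since their markers did not part them, which departs from the plan. Early clusters 3 and 6 of the tumors, WT clusters 0 (late) and 5 (657 of 2502 progenitors) and both precursor divisions of WT oligodendrocyte-like cells held none of their own markers among their 10 leading genes. The 2 highest class scores lay within 0.25 SD in 7906 of 37946 cells when classes were assigned cell by cell.

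UMIs were summed per animal and class with at least 10 cells and tested in R 4.3.3 with edgeR 4.0.16 (TMM, filterByExpr, quasi-likelihood test, Benjamini-Hochberg over all genes tested, called at an adjusted p under 0.05), in 18 comparisons with 117 tests of members. SE is the log2 difference over the root of F. DESeq2 1.42.0 was the other tool. Exact permutation tests over animals were 2-sided and, unlike the plan, not adjusted over the 8 members. Deviations of same-numbered replicates correlated by -0.29 to 0.55 between the treatments (0.38 and 0.55 for numbers 4 and 5 in progenitors) and by -0.37 to 0.15 between vehicle and WT. Since not every pair exceeded 0.1 and the labels do not say what a number stands for, no pairing was used. The tests were tested on simulated data: for vismodegib against vehicle in progenitors (11261 genes) 56.6% of genes changed by 1 on the log2 scale were recovered, and in late cells (6135 genes) 73.3%. Changes of 2 were planted beside them, and there were 6 and 12 false calls. In the real late cells 0 of 6386 genes were called, so the simulated share need not hold there. All 8 members are named, with the 3 partners that rose and the 3 that fell most among called genes without overlap, and the 3 nearest genes by profile. Members and lists were chosen with earlier results of these data known.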

Additional observations from a re-analysis of the deposited data

Results flagged for a closer look

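In 9 of 120 sets of one gene, class and group, 1 animal lay far from the rest of its group, and chance alone sets apart about 5 percent of such sets. In late cells these were Cntn2 in vehicle 3 (1078.3 CPM, the others 513 to 642 CPM), Ncam1 in vehicle 1 (447.6 CPM, the others 615 to 671 CPM), Cntn1 in vismodegib 5 (394.7 CPM, the others 348.5 to 358 CPM) and Nfasc in vismodegib 2 (146.3 CPM, the others 73.3 to 92.1 CPM). In astrocyte-like cells they were Cntn1 in WT 2 (111.9 CPM, the others 227 to 246 CPM), Ncam2 in vehicle 5 (36.14 CPM, the others 65.0 to 75.7 CPM) and Ncam2 in vismodegib 3 (152.5 CPM, the others 53.4 to 77.5 CPM), which rest on 12, 15 and 10 UMIs. In oligodendrocyte-like cells they were Nfasc in vehicle 1 (678.1 CPM, the others 203 to 276 CPM) and Cntn2 in vismodegib 2 (235.2 CPM, the others 51.5 to 78.6 CPM), the latter from 8 UMIs.

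Differences between stages that themselves differed between groups were seen for 6 members between treatments, on the log2(CPM + 10) scale by an exact permutation test. The measure was not computed for other genes, so the share of all genes that would pass is not known. The count is therefore not read as a trait of the members. Differentiating cells minus progenitors, vismodegib minus vehicle, was 1.45 for Chl1, 1.08 for Cntn1, 0.49 for L1cam, 0.44 for Ncam1, 0.23 for Nrcam and -0.56 for Cntn2. Late cells rose from 6.28% to 33.9% of the lineage, so this measure holds the shift from early to late cells. With late cells alone it was -0.53 for Cntn2, and with early cells alone 0 of 8 members passed. Early cells minus progenitors, vehicle minus WT, was 1.45 for Cntn2, 0.63 for Nfasc and -0.43 for Ncam1. Progenitors of vehicle-treated tumors averaged under the microglia-like level of Cntn2 and of Nfasc, so the size of those differences is uncertain.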

How the results depend on the processing

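Leaving out 1 animal at a time moved the number of members called from 9 to between 5 and 9 for vismodegib against vehicle (5 without vismodegib 4), from 14 to between 13 and 15 for vehicle against WT, from 26 to between 24 and 26 for the steps between stages, from 21 to between 21 and 24 for glia, and from 3 to between 3 and 4 for late clusters. The 6 members with a stage difference under treatment became 5 to 7, 5 with a pseudocount of 1 (L1cam and Nrcam lost, Ncam2 gained), 0 with early cells alone and 1 with late cells alone. The other settings gave 6 to 12 (the 4 SD limit and the finer clusters 6, the tumor set as a term 12), 12 to 16, 19 to 26 and 21 to 25 calls. With classes assigned cell by cell, treatment calls were lost for Cntn1, Cntn2 and L1cam in progenitors. Nfasc and Nrcam in early and Cntn1 in astrocyte-like cells were lost too, while Cntn1, Chl1 and L1cam were gained in late cells. Of single values, 681 kept their direction and side of the threshold with 1 animal left out, 49 lost and 13 gained a call, and with other settings 467 did, 54 lost, 25 gained and 6 reversed. For stage steps and glia, the 681 include fits where the animal left out belonged to the other group. Such fits equal the main one and could not change, so the 681 overstates stability. Test values called neither in the main fit nor in the changed one were not counted. The reversals were late against early cells of vehicle-treated tumors with classes assigned cell by cell for Nfasc (-0.06) and Nrcam (-0.34), and the stage difference of Nfasc under treatment with a pseudocount of 1 (-0.06) and, with late cells alone, those of Cntn1 (-0.06), L1cam (-0.40) and Nfasc (-0.28). The cause was not tested. With the replicate number as a block, though the labels do not say what a number stands for, 10 members were called for vismodegib against vehicle and 14 for vehicle against WT. It added Cntn2 in early cells with treatment (edgeR adjusted p = 0.043) and Cntn1 in astrocyte-like cells against WT (0.0436) and cost Nfasc in oligodendrocyte-like cells (0.0582). Over all genes DESeq2 called 620 where edgeR called 374 in progenitors and 277 against 134 in early cells under treatment.

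Depth limits shares of cells. With all UMIs in place of 500 per cell, the share of early cells of vehicle-treated tumors with a UMI went from 1.27% to 3.31% for Cntn1, 36.6% to 63.1% for Cntn2, 4.95% to 12.2% for L1cam, 7.32% to 20.5% for Nrcam, 2.51% to 6.22% for Nfasc, 0.216% to 0.525% for Chl1, 17.8% to 42.3% for Ncam1 and 0.249% to 0.674% for Ncam2.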
